A study of Mus musculus with 2 samples.

Results

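The cells described here are 132 mesenchymal cranial neural crest cells (CNCCs) that carried transcripts of Vtn or Heyl, 58 in the control and 74 in the mutant library. They were chosen by their UMIs from 5625 control and 5587 mutant cells that passed the quality filter. A UMI is a tag that marks 1 captured transcript molecule. A cell was taken if Vtn and Heyl together had 2 UMIs or more and Prrx1, Prrx2 and Twist1 together had 1 or more. It also had to hold at most 1 UMI of Sox2, Sox10 and Elavl3 and none of Hand2, Hoxa2, Hoxb2, Lhx6 or Lhx8. These 13 genes fixed the choice and are not results.

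The cells came from mouse heads at E11.5, cut below the second pharyngeal arch, from which GFP-positive cells were sorted. In both groups, Wnt1:CRE, a driver active in the early neural crest and dorsal neural tube, had recombined the mTmG reporter, for which all embryos were homozygous. Control (Tfap2HET) embryos carried 1 floxed and 1 wild-type allele of each of Tfap2a and Tfap2b, and mutant (Tfap2NCKO) siblings were homozygous for both floxed alleles, so that the controls too had lost an allele of each gene in these cells. Cells of 2 embryos were pooled for each group, and each pool gave 1 library. No replicate error could therefore be estimated, no test was possible, and every interval below is at 95% and covers counting error only.

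Mural cells are the pericytes and smooth muscle cells that wrap the endothelial tube of blood vessels. In the face and forebrain they arise from the neural crest, and elsewhere mostly from mesoderm. Endothelial cells recruit them through PDGF-B, which is read by the receptor Pdgfrb on the mural cell, and instruct them through Notch ligands, whose signal turns on Heyl and related repressors. Pericytes make the vascular basement membrane together with the endothelium, whereas smooth muscle cells add contractile proteins such as Acta2 and Tagln.

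To show which of these genes carry the TFAP2 recognition letters near their start, the 250 bases before the transcription start were searched for GCCNNNGGC, a palindrome read by TFAP2 factors. The promoters were those of RefSeq on GRCm38.p6, in which 15 of 23 mural and contractile genes had an entry. The letters were found before 5 of these 15 genes, and before 15.4% of the 27025 genes with a promoter. The matches of 3 genes described below are given 5′ to 3′ on the strand of the gene, with the motif in capitals. Abcc9 held a further match that is not shown.
Acta2, chr19:34255478-34255506, minus strand: agagacccagGCCTCTGGCcacccagatt
Abcc9, chr6:142702385-142702413, minus strand: gagggtccccGCCTCAGGCgtctggggtg
Mcam, chr9:44134527-44134555, plus strand: cagccagcgcGCCGGGGGCccgcccccta
The letters TGGGAA, read by the Notch partner RBPJ, were searched on both strands and stood before 5 of the 15 genes, against 24.1% of all genes. Those before Tbx18, a T-box factor of mural cells, are shown because its level differed between the libraries. They lie on the opposite strand and so appear as TTCCCA on the strand of the gene.
Tbx18, chr9:87731261-87731280, minus strand: gagcaagttcTTCCCAccgc
A match is a description of letters and not a binding site.

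The selected cells were 1.03% of the kept control cells (0.784% to 1.33%) and 1.32% of the kept mutant cells (1.04% to 1.66%). The difference of 0.293 percentage points had an interval from -0.119 to 0.710. Of the cells that passed every other condition, 58 of 1761 control (3.29%) and 74 of 1345 mutant cells (5.50%) carried the 2 UMIs, a difference of 2.21 points (0.715 to 3.77). The median depth was 10850 UMIs and 3711 genes in the control and 9899 UMIs and 3447 genes in the mutant cells. The sums over all selected cells were 667332 and 811340 UMIs, against 82313680 and 77251738 UMIs in all kept cells of the libraries, so that 1 UMI was worth over 1 count per 1000000 (CPM). No barcode among these cells occurred in both libraries, and Scrublet called none of them a doublet. The pooled embryos also differed in sex between the groups. Of the control cells 56 of 58 held Xist, and of the mutant cells 0 of 74, while a UMI of 4 Y-linked genes was in 0 control and 63 mutant cells, and sex and genotype thus cannot be told apart.

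Whether these cells are mural was checked by other genes of mural cells. Relative to the 1648 control and 1211 mutant cells that passed the same conditions with no Vtn or Heyl UMI, called Vtn/Heyl-zero mesenchyme here, 12 of the 13 measured genes of a mural list lay 1.5-fold or more higher in both libraries, with Notch3 as the exception. Over all 6759 genes with 30 UMIs or more, 12.2% did so. Kcnj8 and Abcc9, which form a potassium channel of pericytes, were at 65.9 and 30.0 CPM in the control cells and at 0.607 and 0.693 CPM in the Vtn/Heyl-zero cells of that library. In the mutant, Kcnj8 was at 93.7 against 0.187 CPM and Abcc9 at 61.6 against 0.375 CPM. Pdgfrb, the PDGF-B receptor, was less selective. It stood at 234 CPM in the control and 232 CPM in the mutant cells, a log2 ratio of 1.85 and 1.73 over the Vtn/Heyl-zero cells. Higd1b, a marker of later pericytes, had no UMI in either library, Colec11 had 0 and 1, and Anpep and Gja4 had under 30 in all.

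Of the genes with 100 UMIs or more in 1 or both libraries, the 15 that led these cells most over the Vtn/Heyl-zero mesenchyme were then taken. Among them was Acta2, at a log2 ratio of 6.03 in the control and 9.45 in the mutant, whose UMIs lay in few cells. Pltp, a phospholipid transfer protein, was at 4.88 and 4.46. Sparcl1, a matrix glycoprotein, followed at 4.79 and 3.28, and Spon1, an adhesive matrix protein, at 3.94 and 3.09. The collagen IV chains Col4a1 and Col4a2, which build basement membranes, lay at 3.17 and 2.92 in the control and at 3.12 and 2.73 in the mutant. Bgn, Notch1, Tagln2, Timp3, Crip2, Fabp7, Parm1 and Tagln were also in the set.

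The pericyte genes were not spread evenly over the cells, as the plot of mural genes by gate gene shows. Of the control cells, 24 held both Vtn and Heyl, 31 held Vtn only and 3 held Heyl only, and in the mutant these numbers were 34, 29 and 11. In the 31 control cells with Vtn only, Kcnj8, Abcc9, Foxs1, Mcam, Cspg4 and Rgs5 all had 0 UMIs in a sum of 327805, which allows up to 3 UMIs of each. The 24 control cells with both genes held 40 UMIs of Kcnj8, 12 of Abcc9, 13 of Foxs1 and 14 of Mcam. In the 34 mutant cells with both genes these counts were 67, 45, 24 and 56, and in the 29 mutant cells with Vtn only they were 7, 4, 2 and 9. Tbx18 and the forebrain and periocular factor Foxd1 did not follow this split in the control cells. Tbx18 was at 249 CPM in control cells with both genes and at 253 CPM in those with Vtn only, and Foxd1 at 364 and 369 CPM. Zic1, a zinc finger factor, was at 256 and 403 CPM. The label of mural cells thus had the backing of pericyte genes mainly in the cells with both Vtn and Heyl.

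**Figure D1:**
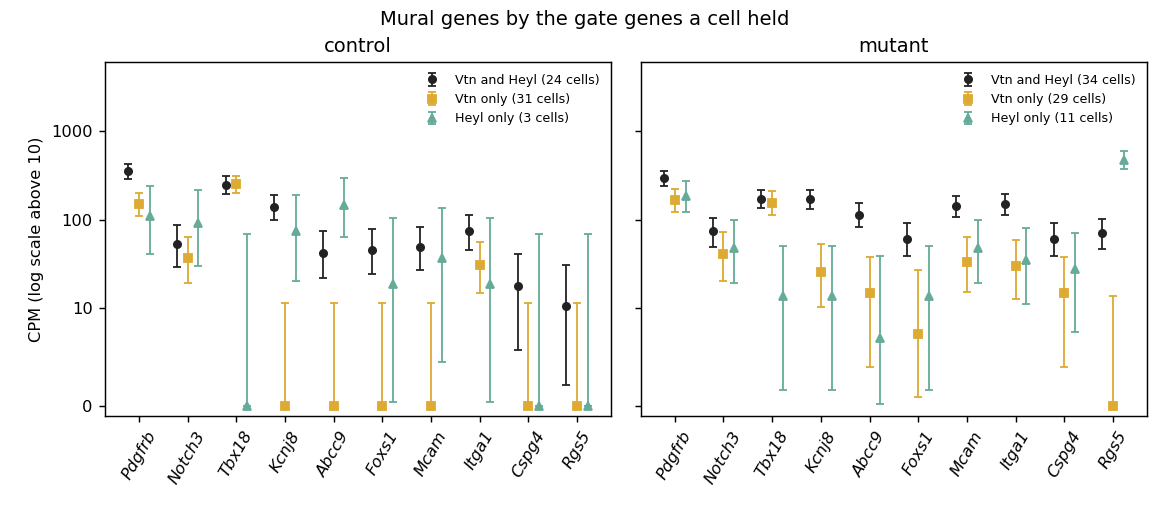
CPM (log scale above 10) of 10 mural genes in control (left) and mutant cells (right), with black circles for cells with Vtn and Heyl, yellow squares for Vtn only and green triangles for Heyl only, and bars for the exact 95% Poisson interval. In the 31 control cells with Vtn only, the 6 genes Kcnj8, Abcc9, Foxs1, Mcam, Cspg4 and Rgs5 lie at 0, while Tbx18 is at 253 CPM there.

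At the edge of the choice, 11 control and 19 mutant cells had exactly 2 UMIs of Vtn and Heyl, and 55 and 60 cells that met the other conditions had 1. Col4a1 was at 554 and 482 CPM in the cells with 2 UMIs and at 269 and 291 CPM in those with 1. Kcnj8 had 4 and 0 UMIs in the cells with 2, and 0 in both libraries in those with 1. Cells with 2 UMIs or more of Vtn and Heyl together that failed another condition numbered 173 in the control and 207 in the mutant. Of these, 157 and 179 carried 2 or more UMIs of the neural genes.

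Contractile transcripts were found in many of the cells but were abundant in few. A core of 6 smooth muscle genes, Acta2, Tagln, Myh11, Cnn1, Actg2 and Lmod1, had 126 UMIs in the control (189 CPM, 157 to 225) and 1325 UMIs in the mutant cells (1633 CPM, 1546 to 1724). The log2 ratio of these sums was 3.11 (2.85 to 3.39). At least 1 such UMI was found in 29 of 58 control (50%, 36.6% to 63.4%) and 30 of 74 mutant cells (40.5%, 29.3% to 52.6%), and these intervals overlapped. With every cell thinned to 5000 UMIs, which left out 5 cells of each library, these shares were 32.1% and 33.3%. Thinned in the same way, they were 3.05% and 7.56% in the Vtn/Heyl-zero mesenchyme, whose median depths before thinning were 13436 and 12556 UMIs. In neural cells, which should lack these genes, they were 0.700% and 0.912%.

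The difference between the libraries lay in a handful of cells. Cells with 10 core UMIs or more numbered 1 of 58 in the control and 9 of 74 in the mutant, and cells with 50 or more 0 and 5. The 0 of 58 allows a share of up to 6.16% by the exact binomial interval. The 5 highest mutant cells had 357, 289, 266, 198 and 119 core UMIs and together held 92.8% of the 1325. The highest control cell had 45, and the next had 9. Without the 10 highest cells of each library, 48 control and 64 mutant cells were left with 31 and 43 core UMIs, and the log2 ratio was 0.15 (-0.55 to 0.86).

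**Figure D2:**
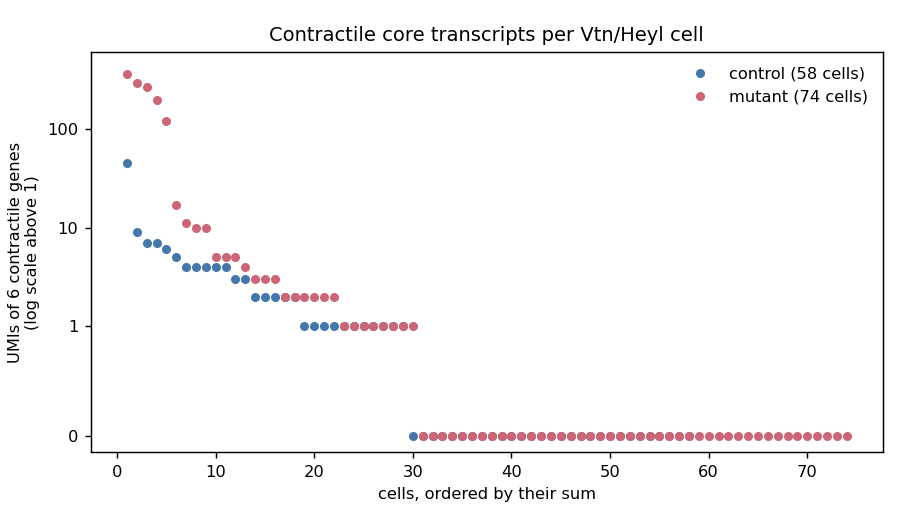
UMIs of the 6 contractile core genes (log scale above 1) in each cell, ordered from the highest, for 58 control (blue) and 74 mutant cells (red). Beyond the 5 mutant cells at 119 UMIs or more and the control cell at 45, the other cells of both libraries lie at 17 or fewer.

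The 5 cells were not alike in their other transcripts. The highest held 152 UMIs of Acta2, 174 of Tagln, 15 of Cnn1, 13 of Lmod1, 35 of Actc1 and 69 of the 97 mutant UMIs of Rgs5, a regulator of G protein signalling that marks pericytes, and had Heyl but no Vtn. The second, with 169 UMIs of Acta2 and 88 of Tagln, had 54 of Actc1, the cardiac actin that early smooth muscle also uses, and 21 of Actg2. The third held 211 UMIs of Tagln, 56 of Actc1 and 78 of Crabp1, a retinoic acid binding protein of facial mesenchyme, and had no Vtn. The remaining pair held 2 and 11 UMIs of Kcnj8 and 3 and 11 of Rgs5. Kcnj8 was also at 2 UMIs in the third cell and Rgs5 at 1 in the second. The pair had no Actc1. Actc1 thus had 145 UMIs in 3 mutant cells and 0 in the control cells, which allows 3 UMIs there. No UMI of the striated muscle genes Myod1 and Ttn was found in either library. A list of 9 striated muscle genes, Actc1 among them, held 7 UMIs in the control and 156 in the mutant cells. Of its genes, 6 were at 0 in the control and 5 in the mutant. The highest control cell, with 11 UMIs of Acta2 and 33 of Tagln, also carried 9 of Kcnj8 and 12 of Tbx18.

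By gene, Acta2 had 17 UMIs in 3 control cells and 496 UMIs in 7 mutant cells, a log2 ratio of 4.58 (3.89 to 5.38). Tagln, which encodes an actin-bundling protein, had 102 UMIs in 28 cells and 739 UMIs in 29 cells (2.58, 2.28 to 2.89). Cnn1 and Actg2 each had 1 UMI in the control and had 33 and 30 in the mutant, in 3 and 4 cells. Myh11, the smooth muscle myosin heavy chain, had 0 and 6. Of the 14 genes of a wider contractile list, 10 were measured at 30 UMIs or more, of which 4 were 1.5-fold or more higher in the mutant and none was lower, at a median of 0.53. Cnn1 and Actg2 reached that minimum through the mutant, and without the 10 highest cells the median was -0.12 over 5 genes. Over all 6759 genes measured so, 7.9% were higher and 6.64% lower by that much. Genes of the list expressed broadly in mesenchyme differed little, with Tpm2, a tropomyosin, at 168 and 186 CPM and Smtn, a smooth muscle cytoskeletal protein, at 27.0 and 22.2 CPM. Myocd, the coactivator of smooth muscle genes, had 6 and 9 UMIs.

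Most pericyte genes that were measured had higher levels in the mutant cells. Of the 17 genes of the mural list, 13 were measured, of which 9 were 1.5-fold or more higher and 1 was lower, at a median log2 ratio of 0.93 against -0.02 over all genes. Over all 6759 genes with 30 UMIs or more, 7.9% were higher and 6.64% lower by that much. Of the 9, Rgs5, Cspg4, Ndufa4l2, Mcam, Cygb and Abcc9 had under 30 UMIs in the control and reached that minimum through the mutant. Foxs1 had 14 and 28 UMIs. Mcam, an adhesion molecule of pericytes, was at 24.0 CPM in 8 control cells and at 88.7 CPM in 30 mutant cells (log2 1.89, 1.09 to 2.77). Cspg4, the NG2 proteoglycan, had 5 UMIs in 3 cells and 32 UMIs in 18 cells (2.40, 1.03 to 4.11). Abcc9 was at 30.0 and 61.6 CPM (1.04, 0.27 to 1.87), and Itga1, a collagen receptor chain, at 48.0 and 88.7 CPM (0.89, 0.27 to 1.54), against 1.23 in the Vtn/Heyl-zero cells. The intervals of these 4 genes lay above 0. Kcnj8 (0.51, -0.05 to 1.08), Notch3 (0.27, -0.41 to 0.97) and Pdgfrb (-0.01, -0.33 to 0.30) had intervals that held 0. The ratio of Kcnj8 depended on the cells, and was 1.37 in thinned cells, 1.08 with equal weight per cell, 0.70 at a gate of 3 UMIs and 1.5 without the 10 cells highest in contractile UMIs. Rgs5 had 3 UMIs in 1 control cell and 97 UMIs in 11 mutant cells, but 71.1% of the latter lay in 1 cell. Ebf1, a factor of pericyte and adipocyte precursors, was at 270 and 514 CPM (0.93), and its log2 ratio in the Vtn/Heyl-zero cells was also positive, at 1.22. Within the cells that held both Vtn and Heyl, Mcam (1.53), Cspg4 (1.79) and Abcc9 (1.44) stayed higher in the mutant, Ebf1 was at 0.37, Kcnj8 at 0.27 and Pdgfrb at -0.27, and the list's median was 0.75. Within the cells with Vtn only, 3 genes of the list were measured, with a median of 0.15.

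Markers of other cells moved with these genes in part. The endothelial list of 12 genes had 64.4 CPM in the control and 123 CPM in the mutant cells, against 24.4 and 32.3 CPM in the Vtn/Heyl-zero mesenchyme, with 4 genes at 0 in each library. Of the 43 and 100 UMIs of this list, Emcn, a sialomucin, held 7 and 33, and Egfl7 held 22 and 25. The defining Pecam1 had 1 and 0, Cdh5 2 and 1, and Tie1 0 and 0, and the rest lay in other genes of the list. The macrophage list had 4 UMIs and 0, and the epithelial list 8 and 10. The 9 blood genes had 21 and 57.9 CPM, against 542 CPM in the control and 0.999 CPM in the mutant Vtn/Heyl-zero mesenchyme. The 8 neuron genes had 204 and 283 CPM, against 5801 and 6007 CPM in neural cells. The 6 glial genes had 193 and 250 CPM, nearly all of it Fabp7, a fatty acid binding protein also made by other cells, while Erbb3 was at 0. The 9 striated muscle genes had 10.5 and 192 CPM, the latter mostly Actc1. Their part in the differences was not tested.

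Tfap2a and Tfap2b themselves were still counted in the mutant cells, which a 3′ library allows, since it does not tell intact from recombined transcripts. Tfap2b had 96 UMIs in 30 of 58 control cells (144 CPM) and 50 UMIs in 21 of 74 mutant cells (61.6 CPM), a log2 ratio of -1.22 (-1.75 to -0.72). In the Vtn/Heyl-zero mesenchyme it was at 114 and 99.5 CPM, a ratio of -0.20 (-0.29 to -0.11), so that the ratios differed by -1.03 (-1.53 to -0.53). Tfap2a had 14 and 12 UMIs (-0.50, -1.75 to 0.72), and no difference was detectable at this depth. In neural cells of the control, Tfap2b was at 166 CPM, which is above its level in the Vtn/Heyl cells, so these cells do not serve as a background for it.

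Among the 1371 genes with 100 UMIs or more in 1 or both libraries, 47 (3.43%) were 1.5-fold or more higher and 14 (1.02%) lower in the mutant. A gene could enter with 100 UMIs in the mutant library alone, whose sum was the larger. At 30 UMIs in all the shares were the 7.9% and 6.64% given above, so nothing is read from the excess of higher genes. Apart from Xist, which these counts include, Msx1, a homeobox factor of facial mesenchyme, had the lowest ratio. It had 218 UMIs in 24 of 58 control cells (327 CPM) and 41 UMIs in 11 of 74 mutant cells (50.5 CPM), a log2 ratio of -2.69 (-3.21 to -2.21). The highest cell of each library held 24 and 8 of these UMIs. In the Vtn/Heyl-zero mesenchyme the levels were 372 and 231 CPM (-0.69), and the ratio in the Vtn/Heyl cells was lower by 2.00 (-2.49 to -1.52). In the control it was found mostly in cells with Vtn only, at 491 CPM in 15 of 31 cells, against 200 CPM in 9 of 24 cells with both genes. The mutant levels were 77.5 and 50.6 CPM. The ratio was below 0 in each of these sets, at -2.66 with Vtn only and -1.98 with both.

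Few other genes of facial position were measured. Of 18 such genes, 5 reached 30 UMIs, of which 4 were 1.5-fold or more lower, against 6.64% of all genes, and none was higher, against 7.9%. Alx4, a homeobox factor of the midface, had 25 and 7 UMIs (-2.12, -3.57 to -0.87) and Emx2, also a homeobox factor, had 25 and 13 (-1.23), so that both reached the minimum mostly through the control. In the Vtn/Heyl-zero mesenchyme Alx4 was lower by less, at -0.35. Crabp1 was at 1026 and 516 CPM (-0.99, -1.17 to -0.81), close to its ratio of -1.15 in the Vtn/Heyl-zero cells. Of 8 genes the study named as reduced, 4 were measured and all 4 were 1.5-fold or more lower, at a median of -1.72. That list comes from the study's text, was chosen in part on these libraries and is not independent evidence.

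**Figure D3:**
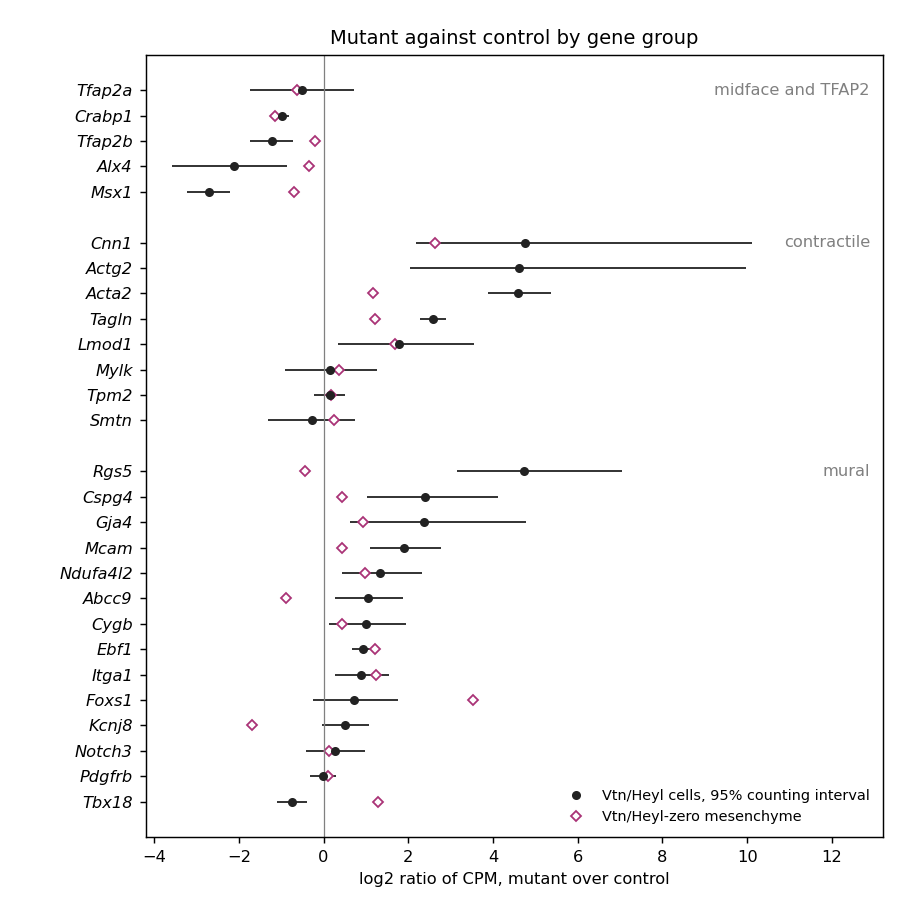
Log2 ratio of CPM (mutant over control) of mural, contractile, midface and TFAP2 genes. Black circles with bars are the Vtn/Heyl cells with the exact 95% counting interval, and open diamonds are the Vtn/Heyl-zero mesenchyme, drawn without an interval and resting on few UMIs for pericyte genes. Msx1 is at -2.69 against -0.69, and Tbx18 lies below 0 in the first and above 0 in the second.

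Tbx18 and Alcam went the opposite way in the Vtn/Heyl cells and in the Vtn/Heyl-zero mesenchyme. Tbx18 was at 231 CPM in 44 of 58 control cells and at 138 CPM in 34 of 74 mutant cells (-0.74, -1.11 to -0.38). In the Vtn/Heyl-zero mesenchyme it was at 11 and 26.8 CPM (1.29). Alcam, an adhesion molecule, was at 214 and 118 CPM in the Vtn/Heyl cells (-0.86, -1.25 to -0.47) and at 35.4 and 118 CPM in the Vtn/Heyl-zero cells (1.73). Alcam thus lay 2.60 above the Vtn/Heyl-zero cells on the log2 scale in the control and 0.01 above them in the mutant. In the control it was at 311 CPM in cells with Vtn only and at 144 CPM in those with both genes, and its ratio in the cells with both was -0.47 (-1.13 to 0.19). That of Tbx18 was -0.53 (-1.03 to -0.03). Of the other genes with the lowest ratios, Zfhx4 (-0.93), Zfhx3 (-0.66) and Trp53 (-0.63) encode nuclear regulators, and Lpar1 (-0.65) is a lysophosphatidic acid receptor. Ndufs3, Nsfl1c and Parm1 lay between -0.63 and -0.72.

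**Figure D4:**
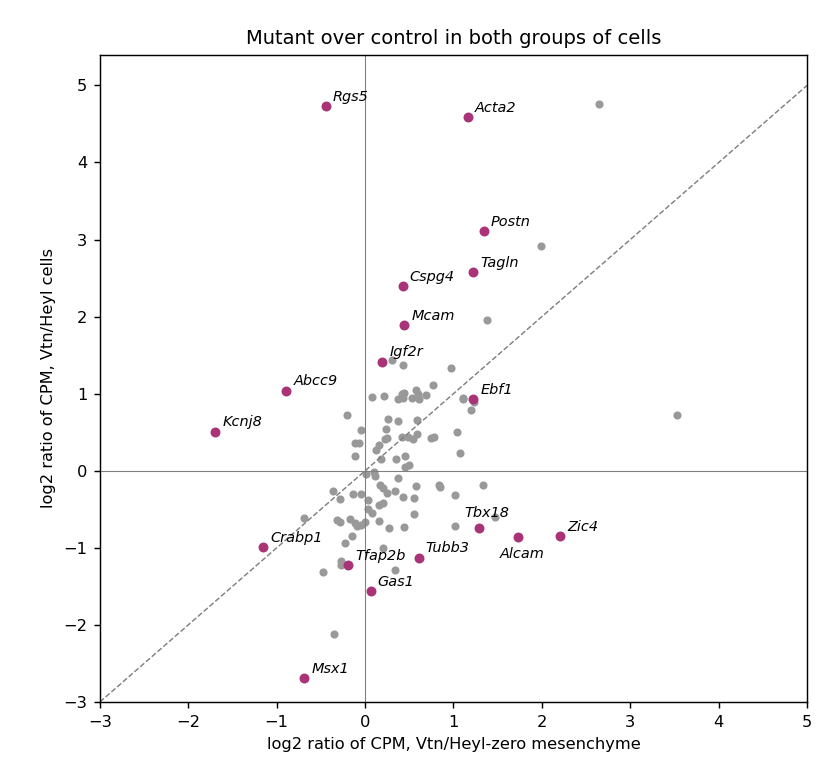
Log2 ratio of CPM (mutant over control) of 113 named genes with 30 UMIs or more, in the Vtn/Heyl-zero mesenchyme (horizontal) and in the Vtn/Heyl cells (vertical), with the dashed line for equal ratios. Alcam, Zic4, Tbx18 and Tubb3 lie at the lower right, and Msx1, at -2.69, lies lowest.

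Among genes with 100 UMIs or more in 1 or both libraries, an interval clear of 0 and no more than 20% of the UMIs in 1 cell, the 12 highest ratios were led by Gm15261, a gene on chromosome X with 3 and 186 UMIs, which had a ratio of 6.82 in the Vtn/Heyl-zero cells too. Igf2r, the receptor that clears IGF2, was at 73.4 CPM in 26 cells and 196 CPM in 41 cells (1.42, 0.95 to 1.91), against 0.20 in the Vtn/Heyl-zero cells. Gpc6, a heparan sulphate proteoglycan, was at 65.9 and 171 CPM (1.38, 0.88 to 1.90), against 0.43. Myh9, the non-muscle myosin heavy chain, was at 142 and 280 CPM (0.97), against 0.22. Loxl2, which crosslinks collagen, was at 80.9 and 160 CPM (0.99), and Itga4, an integrin chain that binds fibronectin, at 64.4 and 128 CPM (0.99). Col9a1, Plpp3, Gng11, Cited2, Zeb2 and Ebf1 lay between 0.93 and 1.05. Of these 12 genes, only Ebf1 had 100 UMIs or more in the control, and the others reached the minimum through the mutant, where they were higher. Ccn2, a matrix protein and YAP target, was at 42.0 and 173 CPM (2.04), but 37.9% of its mutant UMIs lay in 1 cell.

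Few genes of the Notch pathway differed by 1.5-fold. Of 19 genes, 11 were measured, of which 2 were 1.5-fold or more higher and 1 was lower, at a median of 0.16. Of all genes 7.9% were higher and 6.64% lower. Of the 11, 7 lay 1.5-fold or more over the Vtn/Heyl-zero cells in both libraries, against 12.2% of all genes. Of the receptors, Notch1 was at 85.4 and 134 CPM (0.65, 0.18 to 1.14, against 0.59 in the Vtn/Heyl-zero cells) and Notch2 at 91.4 and 45.6 CPM (-1.0, -1.63 to -0.39). The ligand Jag1 was at 82.4 and 87.5 CPM, and the endothelial ligand Dll4 had no UMI. Of the targets, Nrarp, a feedback inhibitor, was at 31.5 and 54.2 CPM (0.79, 0.00 to 1.61) and Hes1 at 133 and 94.9 CPM (-0.49, -0.95 to -0.03). Of the PDGF genes, Pdgfra, the receptor of fibroblast-like mesenchyme, was at 102 and 85.0 CPM (-0.26, -0.77 to 0.24).

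Other signalling genes were measured in part. Of 20 TGFβ and BMP genes, 14 were measured, of which 3 were 1.5-fold or more higher and 2 lower, against the same 7.9% and 6.64%. The ligand Tgfb1, a signal for smooth muscle fate, was at 46.5 CPM in 12 cells and 88.7 CPM in 28 cells (0.93, 0.31 to 1.59), against 1.11 in the Vtn/Heyl-zero cells, and Ltbp1, its latent binding protein, had 7 and 23 UMIs (1.43). The ligands Bmp4 (-0.66, -1.40 to 0.06) and Bmp7 (-0.74, -1.51 to 0.02) had intervals that held 0. Of 11 hedgehog genes, 5 were measured, of which 1 was higher and 3 were lower. The co-receptor Gas1 was at 142 and 48.1 CPM (-1.57, -2.14 to -1.01), against a ratio of 0.06 in the Vtn/Heyl-zero cells. The receptor and target Ptch1 was at 135 and 81.4 CPM (-0.73, -1.21 to -0.26), against 0.44. The repressor Gli3 had 19 and 45 UMIs (0.96, 0.16 to 1.82). Of 13 genes of signalling with the vessel, 5 were measured, of which Vegfa was lower, at 71.9 and 29.6 CPM (-1.28, -2.05 to -0.55), and none was higher. Cxcl12, a chemokine, was at 593 and 611 CPM (0.04, -0.15 to 0.24).

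Most matrix genes measured differed by less than 1.5-fold between the libraries. Of 16 basement membrane genes measured, 15 lay 1.5-fold or more over the Vtn/Heyl-zero cells in both libraries, against 12.2% of all genes. In the mutant 2 of the 16 were 1.5-fold or more higher and none lower, against 7.9% and 6.64% of all genes. Col4a1 was at 1227 and 1197 CPM (-0.04, -0.17 to 0.10). Hspg2, perlecan, was at 33.0 and 51.8 CPM (0.65, -0.13 to 1.47). Of 28 interstitial matrix genes measured, 7 were higher and 1 was lower by that much, against the same 7.9% and 6.64%. Among the 7, Postn and Col6a1 (29 and 68 UMIs) had under 30 UMIs in the control and reached the minimum through the mutant. The median ratio was 0.17, and it was 0.43 over 34 genes in the Vtn/Heyl-zero mesenchyme. Nothing particular to the Vtn/Heyl cells is therefore read from the higher ones. Postn, a matricellular protein, had 8 UMIs in 6 cells and 84 UMIs in 26 cells (3.11, 2.07 to 4.37), against 1.34 in the Vtn/Heyl-zero cells. Dcn, decorin, was at 61.4 and 40.7 CPM (-0.60, -1.30 to 0.10) and had a ratio of 1.48 in the Vtn/Heyl-zero cells.

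Of 12 genes the study named as raised, 10 were measured. In the Vtn/Heyl cells 1 of these, Postn, was 1.5-fold or more higher, and the median over the 10 was -0.01. In the Vtn/Heyl-zero mesenchyme all 12 were measured, with a median of 0.53. Foxd1 was at 357 and 309 CPM (-0.21, -0.47 to 0.06), against 0.84, and Foxf2, a forkhead factor of brain pericytes, at 64.4 and 51.8 CPM (-0.32), against 1.02. That list too was chosen in part on these libraries. Of 30 factors of head mesenchyme, 19 were measured, of which 2 were 1.5-fold or more higher, among them Meis2 (0.94, 0.18 to 1.75). Lower by that much were 3, among them Zic4 (-0.85, -1.64 to -0.08) and Six2 (-0.84, -1.48 to -0.22). Over all 6759 genes with 30 UMIs or more, 7.9% were higher and 6.64% lower, and nothing is read from these small counts. Of 24 genes of replication and mitosis, none differed by 1.5-fold, at a median of 0.02. Top2a, a topoisomerase of dividing cells, was at 334 and 271 CPM (-0.30), and Ccnb2, a mitotic cyclin, at 74.9 and 109 CPM (0.53).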

How the data were processed

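Raw UMI counts, deposited as whole numbers for each cell barcode, were used without further scaling by the authors, who obtained these counts from 3′ 10x Chromium libraries by Cell Ranger on mm10. Strand use in counting was not given in the sources used here, so overlapping genes are uncertain. Barcodes with 200 to 7500 genes and at most 10% mitochondrial UMIs were kept (523 control and 476 mutant removed).

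UMIs were summed over the selected cells of each library and given as CPM. Sums have exact Poisson intervals, log2 ratios exact conditional binomial intervals and shares Clopper-Pearson intervals. A count of 0 was set to 3 counts for a fold. For a difference of shares both intervals were combined, and the interval of a difference of log2 ratios rests on a normal approximation to the counting error. Neural cells had 2 UMIs or more of Sox2 and Elavl3 and none of the mesenchyme genes. No p-value was computed, since each group had 1 library. The calculation was tested on simulated data. Python 3.11.15, scipy 1.17.1, scanpy 1.11.5 (Scrublet) and edgeR 4.0.16 (TMM factors) were used.

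The cells and gene lists were chosen with earlier results of these data known. Named were the contractile core and mural lists, Tfap2a, Tfap2b and the gate genes. Added were the 12 highest and 12 lowest ratios (100 UMIs, interval clear of 0, at most 20% of UMIs in 1 cell, without sex-linked Xist, Tsix and Y genes), the 15 genes highest over the Vtn/Heyl-zero cells, and the 3 highest and lowest of each other list with 30 UMIs. Further genes were named after their values were seen, as markers, pathway members or genes of single cells (Actc1, Ccn2, Pecam1, Cdh5, Tie1, Erbb3, Myod1, Ttn, Myocd, Jag1, Dll4, Zic1). A few genes that the rule selects are not reported here.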

Additional observations from a re-analysis of the deposited data

Results flagged for a closer look

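For 4 named genes the ratio of mutant over control was 1.5-fold or more in opposite directions in the Vtn/Heyl cells and in the Vtn/Heyl-zero mesenchyme, with both counting intervals clear of 0. With 1 library in each group this difference was not tested. The ratio in the Vtn/Heyl cells minus that in the Vtn/Heyl-zero cells was -2.59 for Alcam (-2.98 to -2.20) and -2.03 for Tbx18 (-2.45 to -1.61) on the log2 scale. For Zic4, a zinc finger factor with 37 and 25 UMIs in the Vtn/Heyl cells, it was -3.06 (-3.89 to -2.22). For Tubb3, a neuronal tubulin with 27 and 15 UMIs, it was -1.74 (-2.67 to -0.80).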

How the results depend on the processing

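No paired analysis was possible because each group had 1 library. The results were recomputed with a gate of 3 UMIs of Vtn and Heyl, a gate on thinned cells, removal of Scrublet doublets, TMM factors, equal weight for each cell, cells thinned to 5000 UMIs, a lower minimum of UMIs, and removal of the 10 cells of each library with the most contractile core UMIs. The split into cells with both Vtn and Heyl and cells with Vtn and no Heyl was chosen after seeing the data. The log2 ratio of the contractile core sum, 3.11, became 2.71 with equal weight per cell, 2.53 in cells with both genes, 0.54 in cells with Vtn and no Heyl, and 0.15 without the 10 highest cells. The median of the contractile list, 0.53, became -0.12 without the 10 highest cells and 0.20 in cells with Vtn and no Heyl, over 5 genes each. The mural median, 0.93, became 0.15 in cells with Vtn and no Heyl, over the 3 genes Ebf1 (1.34), Pdgfrb (0.15) and Tbx18 (-0.71). Mcam, Kcnj8 and Abcc9 fell under the minimum in those cells, at 0 UMIs in the control and 9, 7 and 4 in the mutant. Acta2 turned to -0.46 in cells with Vtn and no Heyl, where it had 5 and 0 UMIs. The 47 genes higher and 14 lower became 145 and 80 of 2968 genes at a minimum of 50 UMIs, 15 and 5 of 515 genes with thinned cells, 16 and 9 of 609 genes in cells with both genes, and 8 and 13 of 500 genes in cells with Vtn and no Heyl. Without the 10 highest cells, 19 of 1112 genes were higher and 12 lower. The share difference of 2.21 points was 0.40 for cells with Vtn and no Heyl. Msx1, Tfap2b, Tbx18 and Alcam kept ratios below 0 under each alternative run for them. Depth limited the rarer genes most. At 32 and 47 UMIs, the interval of Notch3 ran from -0.41 to 0.97, and the variation between embryos is unknown.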
